A study of Danio rerio with 31 samples.

Results

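Whole zebrafish larvae in the light phase of a light/dark cycle (LD) were compared with larvae kept in constant dark (DD) at the same circadian time. The comparison used the 6 LD arrays taken at hours 4, 8, 12, 28, 32 and 36 after the first lights-on and the 6 DD arrays of the same hours, 12 of the 31 arrays in the series, paired by hour. Wild-type AB larvae had been raised under a light/dark cycle at constant temperature. Before lights-on at 5 days post-fertilization, dishes either stayed in LD or were moved to DD, and 1 dish per condition was collected every 4 h, under dim red light where it was dark. Each array measured the RNA pooled from the larvae of 1 dish on an Agilent one-colour zebrafish array, so the 6 hours served as the repeats and every p-value below measures the spread over hours, not between dishes of the same hour. In RNA from whole larvae, fewer cells of a type and less RNA per cell cannot be told apart.

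LD and DD arrays lay on different slides, 3 slides for each condition with 4 successive hours on each, and the conditions were scanned on different days. Light, slide and scan day therefore cannot be told apart within an hour. The difference at hour 0, taken at the first lights-on on the same slides as hours 4, 8 and 12 and before the larvae had differed in light for any length of time, was used as the reference. Between 75.1% and 92.0% of probes lay well above background on the 24 arrays of the time course, with the LD array of hour 28 at the top against 79.4% on the DD array of that hour. The DD array of hour 24 was at the bottom, against 87.6% on the LD array of that hour. Of 10 lists of cell type markers, only that of retinal photoreceptors had members past the test, 2 of 5 detected. These were the cone opsins *opn1lw2* and *opn1mw1* described below, both lower in LD. No member of the lists for lens, skeletal muscle, liver, exocrine pancreas, intestine, erythrocyte, melanophore, brain or epidermis passed. Across all NCBI genes 2.54% were higher and 1.68% lower in LD.

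In zebrafish most tissues see light directly. Light reaching the cells induces a few clock repressors of the period and cryptochrome families, which bind and silence the CLOCK and BMAL activators and so set the phase of the clock. Light also induces enzymes that repair ultraviolet damage, among them photolyases, which use light energy to split the crosslinked bases. In the retina, light bleaches cone and rod opsins, arrestins shut the cascade down, recoverins delay the shut-off by holding back the opsin kinase, and the visual cycle returns the retinoid chromophore to its light-sensitive form.

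In daytime the LD larvae differed from the DD larvae at 1657 of 35412 detected probes, 4.68% (limma with hour as a block, Benjamini-Hochberg adjusted p under 0.05). Of these, 763 probes (2.15% of those tested) were higher and 894 (2.52%) lower in LD, and 7775 probes (22%) had an unadjusted p under 0.05. With 1 probe for each of 11039 NCBI genes, 280 genes (2.54%) were higher and 185 (1.68%) lower. The split leaned on the scaling, since 46.0% of the called probes were higher with quantile-normalized values and 56.8% were higher (859 against 652) after scaling each array to its 75th percentile. The LD and DD arrays did not overlap at 478 probes (1.35%) that were higher and 363 probes (1.03%) that were lower in LD, and for 306 NCBI genes (2.77%). At single hours the share of probes that differed by over 1 on the log2 scale was 5.32, 4.81 and 5.06% at hours 4, 8 and 12, and 5.85, 3.76 and 2.59% at hours 28, 32 and 36, against 4.72% at hour 0. Among 112 called genes followed in detail, 59 kept the call whichever hour was left out and 14 lost it every time, while 80 kept it without hour 28, whose LD array stood apart, and 67 to 81 without another hour.

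Hour 0 carried part of the difference, and more of it for lower than for higher probes. Among the higher probes the median difference was 0.63 in daytime and 0.18 at hour 0, and 13.5% had a difference at hour 0 as large as their daytime mean. Among the lower probes the median was -0.61 in daytime and -0.50 at hour 0, and 38.3% had one as large at hour 0. The difference of *leng9* averaged 3.69 ± 0.79 in daytime (SD, n = 6 pairs, as in all values with ±) but was already 3.39 at hour 0. *dnajc19*, a mitochondrial protein import factor, averaged -2.2 ± 0.67 in daytime and -2.93 at hour 0, and *pink1*, a mitochondrial kinase, 1.36 ± 0.42 in daytime and 1.45 at hour 0. These 3 genes, chosen after their values were seen, differed at hour 0 nearly as much as in daytime, or more. A gene was therefore counted as beyond hour 0 only if its 6 daytime differences had 1 sign and all exceeded the difference at hour 0: 193 genes (1.75%) were higher and 84 (0.761%) lower by this rule, or 470 probes (1.33%) and 285 probes (0.805%). Hours 28, 32 and 36 lay on other slides than hour 0, so the rule cannot account for slide differences at those hours. Nor is hour 0 a full reference for the hours on its own slides. Across probes its differences had a Pearson's r of 0.48 with those of hour 8. With hours 4 and 12 the values were 0.04 and 0.03. Genes whose symbols began with a listed provisional prefix were left out. An uncharacterised gene with another provisional symbol stayed among the lower ones. The 15 largest of each direction after this filter are described below, with lists of clock, repair, retinal and metabolic genes. That the 6 daytime differences of these 30 genes have 1 sign and exceed hour 0 is fixed by the rule and is no result. The lists and their members were chosen with earlier results of these data known. Their counts of calls beside the shares over all NCBI genes are therefore descriptions.

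**Figure D1:**
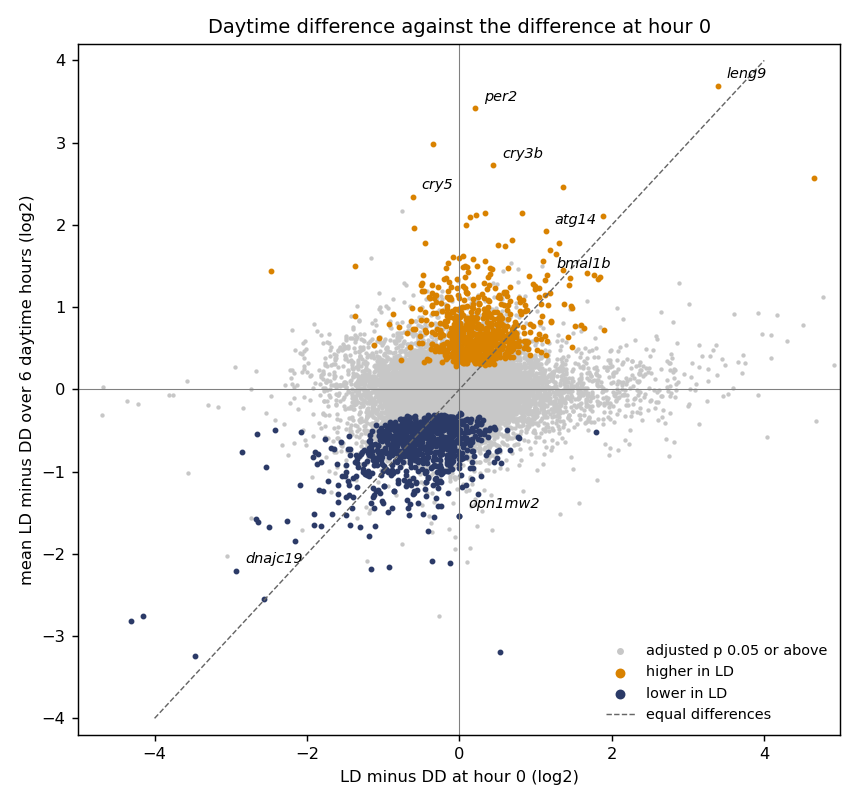
Mean LD minus DD difference over the 6 daytime hours (y axis, log2) against the difference at hour 0 (x axis, log2) for each detected probe, with 5 probes beyond the axes not drawn; orange points were higher and blue points lower in LD at an adjusted p under 0.05, grey points did not pass, and the dashed line marks equal differences. *per2*, *cry3b* and *cry5* lie far above the dashed line, at 0.20, 0.44 and -0.61 on the x axis, whereas *leng9* and *dnajc19* lie near the line.

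Among the 30 named genes, clock repressors held the 2 largest differences. *per2*, a light-induced period gene, had normalized log2 levels of 10.74 lowest, 11.08 median and 12.31 highest on the LD arrays, against 7.73, 7.86 and 8.27 on the DD arrays. Every LD array lay above every DD array. The mean difference was 3.42 ± 0.59 (limma, adjusted p = 0.000999), against 0.20 at hour 0. *cry3b*, a cryptochrome formerly listed as *cry2b*, ranged over 7.92, 9.19 and 11.14 in LD and 5.80, 6.38 and 7.97 in DD. LD was above DD at each hour, although the LD array of hour 28 lay just below the DD array of hour 36. Its mean difference was 2.73 ± 0.48 (adjusted p = 0.000999; 0.44 at hour 0). *cry3a*, formerly *cry2a*, was 1.35 ± 0.21 higher (adjusted p = 0.00127; -0.18 at hour 0), with 11.08, 11.50 and 12.41 in LD and 9.72, 10.39 and 10.83 in DD and no overlap.

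In all, 3 of the 9 detected clock repressors were higher (2.54% of all NCBI genes were) and none was lower (1.68%); the list median was -0.05, against 0.01 over all NCBI genes. *per1b*, a period gene driven by the clock, averaged -1.94 ± 1.86 (adjusted p = 0.119), a mean over very unequal hours. The difference was -0.02 at hour 4 and -0.39 at hour 28, but -4.02 at hour 12, with 8.38 in LD against 12.40 in DD, and -4.40 at hour 36, with 9.37 in LD against 13.77 in DD. *nr1d1*, a Rev-erb repressor of *bmal1*, gave 0.47, -1.63 and -1.24 on the first day and 0.44, -1.90 and -2.55 on the second (adjusted p = 0.190 for the mean). *per3* gave 0.43, 0.13 and -1.71, then 0.81, 0.30 and -0.66. Of the 16 detected activators and members of the stabilising loop, *bmal1b* alone passed, at 1.39 ± 0.40 (adjusted p = 0.00526), but its difference at hour 0 was already 1.15, and the list median was 0.16. Among 5 factors that bind the D-box, a clock- and light-responsive promoter element, the repressor *nfil3* was 0.52 ± 0.29 higher (adjusted p = 0.0453) and the activator *tefb* lower (-0.49 ± 0.28, adjusted p = 0.0491). Both calls were lost whichever hour was left out.

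**Figure D2:**
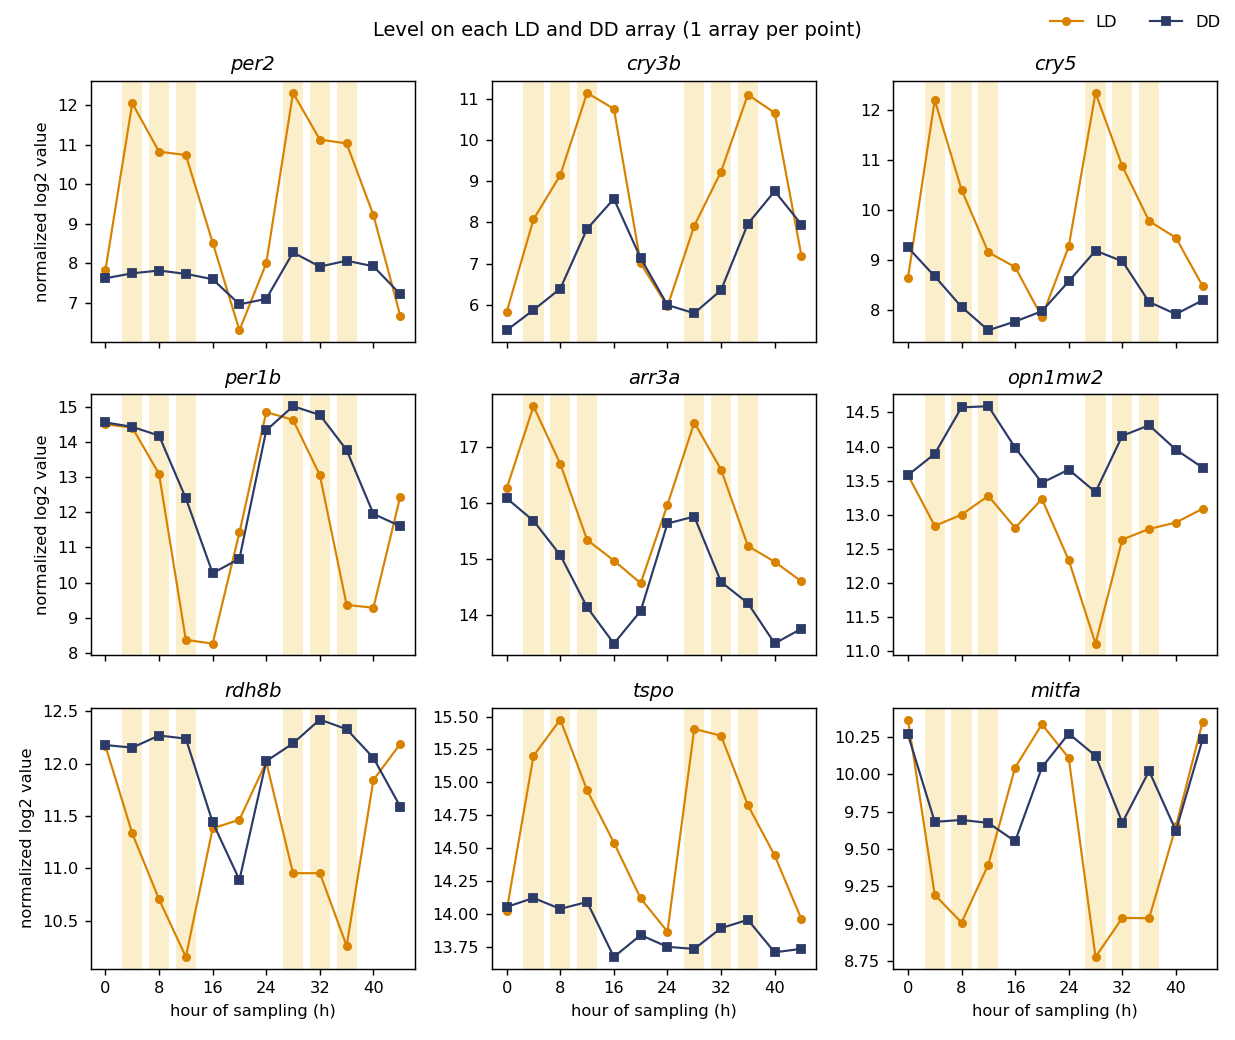
Normalized log2 level (y axis) on the 1 LD array (orange circles) and 1 DD array (blue squares) of each hour of sampling (x axis, h) for 9 genes; yellow bands mark the daytime hours compared. In every band *per2*, *cry5* and *tspo* are higher on the LD array than on the DD array of that hour. Within the bands *per1b* parts at hours 8 to 12 and 32 to 36.

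A group of DNA repair genes, most of which act on ultraviolet damage, was higher in LD. *cry5*, the 6-4 photolyase, had 9.16 lowest, 10.64 median and 12.34 highest in LD, against 7.60, 8.42 and 9.19 in DD. The ranges overlapped slightly, since the LD array of hour 12 fell just below the DD array of hour 28. The mean difference was 2.34 ± 0.82 (5.08-fold, adjusted p = 0.00726), against -0.61 at hour 0. *ddb2*, which recognises ultraviolet lesions for nucleotide excision repair, was 1.47 ± 0.49 higher (adjusted p = 0.00719) and *xpc*, which works beside it, 1.13 ± 0.69 higher (adjusted p = 0.0387). *cpdp*, the photolyase for cyclobutane dimers, ranged from 12.37 to 13.45 in LD and from 11.60 to 11.96 in DD without overlap (1.11 ± 0.46, adjusted p = 0.0140). *neil1*, a glycosylase that removes oxidised bases, ranged from 10.91 to 11.76 in LD and from 9.77 to 10.38 in DD (1.27 ± 0.41, adjusted p = 0.00718). These were the 5 of 24 detected repair genes that passed, none was lower, and the list median was 0.10 (over all NCBI genes 2.54% were higher and 1.68% lower). All but *xpc* kept the call whichever hour was left out; *xpc* lost it each time (adjusted p 0.0569 to 0.101). *cry-dash*, another photolyase relative, averaged 0.88 ± 0.70 and did not pass (adjusted p = 0.0804).

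Several of these differences shrank through the day and one grew. For *cry5* they were 3.51, 2.34 and 1.55 at hours 4, 8 and 12 and 3.15, 1.89 and 1.62 at hours 28, 32 and 36. *xpc* gave 1.84, 0.92 and 0.44, then 2.10, 0.93 and 0.55. *cry-dash* gave 1.76, 0.71 and -0.01, then 1.69, 0.70 and 0.46. The largest difference of both days thus stood 4 h after lights-on, the first sample in the light. For *cry3b* the order was turned, with 2.2, 2.75 and 3.30, then 2.12, 2.87 and 3.13. Over the 193 genes higher beyond hour 0, the hour-4 difference was the largest of the first day in 94 genes. Its counterpart at hour 28 was the largest of the second day in 95 genes, and both held in 52. Among the 84 genes lower beyond hour 0 these counts were 35, 26 and 5. Both sets were chosen on these same differences. No probe passed an adjusted p under 0.05 for a linear change of the difference with hour of day; 1394 probes (3.94%) had an unadjusted p under 0.05, among them *cry5* (p = 0.000429), *cry3b* (p = 0.000701) and *per1b* (p = 6.4e-05) in the limma fit. These orders are therefore given as values.

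**Figure D3:**
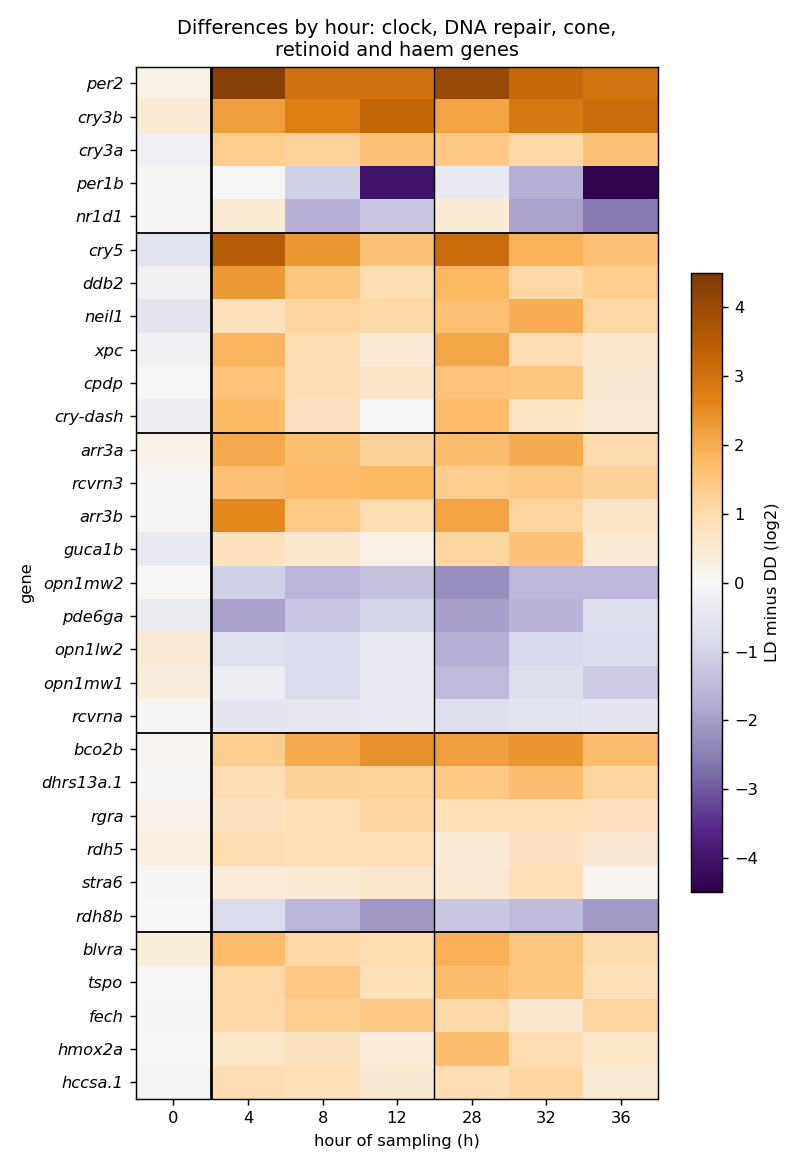
LD minus DD difference (colour, log2; orange higher and purple lower in LD) at hour 0 and at the 6 daytime hours (columns, h) for 31 genes of the clock, DNA repair, cone, retinoid and haem groups, parted by black lines. The column of hour 0 is pale, *cry5* and *xpc* are darkest at hours 4 and 28, and *per1b* at hours 12 and 36. The cone group includes *pde6ga*, a subunit of the rod phosphodiesterase.

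Phototransduction genes, of rods and cones, moved both ways. Of 33 detected phototransduction genes, 4 were higher and 5 lower in LD, with a list median of -0.01 (over all NCBI genes 2.54% were higher and 1.68% lower). *arr3a*, a cone arrestin, had 15.24, 16.64 and 17.72 in LD and 14.15, 14.83 and 15.76 in DD. LD was above DD at each hour, by 1.59 ± 0.41 on average (3.01-fold, adjusted p = 0.00395; 0.17 at hour 0), though the ranges overlapped because the level fell through the day in both conditions. The second cone arrestin *arr3b* was 1.48 ± 0.74 higher (adjusted p = 0.0222), with its largest difference at hour 4, 2.60, and its smallest at hour 36, 0.64. This call was lost without hour 8, 28 or 32 (adjusted p up to 0.0558). *rcvrn3*, a recoverin that holds back opsin phosphorylation, was 1.51 ± 0.22 higher (adjusted p = 0.000999; 0.07 at hour 0) and even over the hours, from 1.2 to 1.77. *guca1b*, an activator of the photoreceptor guanylate cyclase, was 0.79 ± 0.50 higher (adjusted p = 0.0468), a call lost without any 1 of the hours.

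The lower ones included green- and red-sensitive cone opsins, whereas the cone opsin *opn1sw2* averaged -0.53 and did not pass (adjusted p = 0.0890). *opn1mw2*, a green-sensitive opsin, had 11.11, 12.81 and 13.28 in LD and 13.33, 14.23 and 14.59 in DD. The LD arrays all lay below the DD arrays, lowest at hour 28. The difference was 0.00 at hour 0, but -1.33 at hour 24, the second lights-on, on the same slides as hour 28. It averaged -1.53 ± 0.39 (2.90-fold lower in LD, adjusted p = 0.00395). *pde6ga*, an inhibitory subunit of the rod phosphodiesterase, had 10.49, 11.38 and 11.87 in LD and 12.21, 12.53 and 13.84 in DD, again without overlap (-1.41 ± 0.51, adjusted p = 0.00877). *opn1lw2*, a red-sensitive opsin, averaged -0.88 ± 0.43 (adjusted p = 0.0236), *opn1mw1* -0.80 ± 0.47 (adjusted p = 0.0394) and the recoverin *rcvrna* -0.54 ± 0.13 (adjusted p = 0.0110). Green opsin probes can share signal between near-identical copies, so *opn1mw1* and *opn1mw2* are not certain to be separate. The calls of *opn1lw2* and *opn1mw1* were lost with hour 4, 8, 32 or 36 left out (and, for *opn1mw1*, any hour), with estimates of -0.98 to -0.66. Beside these stood the photoreceptor markers: their summed normalized intensity ranged from 199701 to 480766 in LD and from 418447 to 640914 in DD, the median difference of the 5 detected was -0.53, and the rod and cone transducins *gnat1* and *gnat2* gave 0.22 and -0.25 without passing. The part of photoreceptor number or RNA content in the result was not tested.

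Genes that handle retinoids and carotenoids had more higher than lower calls. Of 17 detected members of the visual cycle list, 7 were higher and 1 lower, with a median of 0.31 (over all NCBI genes 2.54% were higher and 1.68% lower). *bco2b*, which cleaves carotenoids, had 7.95, 8.60 and 8.89 in LD and 6.29, 6.57 and 6.78 in DD, without overlap and with 0.09 at hour 0. Its mean difference was 2.00 ± 0.43 (4.01-fold, adjusted p = 0.00212). *dhrs13a.1* was 1.26 ± 0.25 higher (adjusted p = 0.00288), with its 3 probes at 1.12 to 1.27. *rgra*, a retinal photoisomerase of the pigment epithelium, was 0.88 ± 0.12 higher (adjusted p = 0.00303), and *rdh5*, which makes 11-cis retinal there, 0.74 ± 0.22 (adjusted p = 0.00872). The smaller differences were those of *stra6*, the retinol uptake receptor (0.47 ± 0.24), of *rbp4*, the retinol carrier of plasma (0.40 ± 0.09), and of the isomerase *rpe65a* (0.39 ± 0.11), at adjusted p from 0.0217 to 0.0430; *rbp4* and *rpe65a* had 0.32 and 0.17 at hour 0. Each of these 3 calls was lost with at least 5 of the 6 hours left out singly, and *rpe65a* turned to -0.51 in the fit within slides described below. Outside the list, *lratb.2* of the lecithin retinol acyltransferase family ranged over 9.56, 10.99 and 11.93 in LD and 8.52, 8.68 and 9.03 in DD (2.12 ± 0.72, adjusted p = 0.00663). The exception was *rdh8b*, a retinol dehydrogenase of photoreceptor outer segments. Its levels were 10.15, 10.83 and 11.33 in LD and 12.15, 12.25 and 12.42 in DD, with no overlap and -0.01 at hour 0. It averaged -1.54 ± 0.49 (2.91-fold lower in LD, adjusted p = 0.00614), the largest lower difference among the 30 named genes.

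Haem and tetrapyrrole genes made up another group in which all calls pointed one way, with 7 of 17 detected members higher, none lower and a median of 0.32 (over all NCBI genes 2.54% were higher and 1.68% lower). The median of the list was 0.23 at hour 0. *blvra*, biliverdin reductase, had 6.47, 6.79 and 7.52 in LD and 5.30, 5.57 and 5.82 in DD. The arrays did not overlap, and the difference averaged 1.36 ± 0.40 (adjusted p = 0.00542; 0.37 at hour 0). *tspo*, a tetrapyrrole-binding protein of the outer mitochondrial membrane, ranged from 14.83 to 15.48 in LD and from 13.73 to 14.12 in DD, without overlap. It was 1.23 ± 0.34 higher (2.34-fold, adjusted p = 0.00526; -0.03 at hour 0), and its DD level was flat. *fech*, which inserts iron into protoporphyrin, was 1.08 ± 0.31 higher (adjusted p = 0.00590), *hmox2a*, a haem oxygenase, 0.83 ± 0.44 (adjusted p = 0.0298), and *hccsa.1*, which attaches haem to cytochrome c, 0.79 ± 0.25 (adjusted p = 0.00907). *ppox* and *blvrb* were 0.43 and 0.32 higher, and *blvrb* had the same 0.32 at hour 0. *alas2*, the erythroid enzyme of the first step, averaged -0.82 ± 0.78 and did not pass (adjusted p = 0.122). The calls of *hmox2a*, *ppox* and *blvrb* were each lost with at least 5 of the 6 hours, left out singly.

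**Figure D4:**
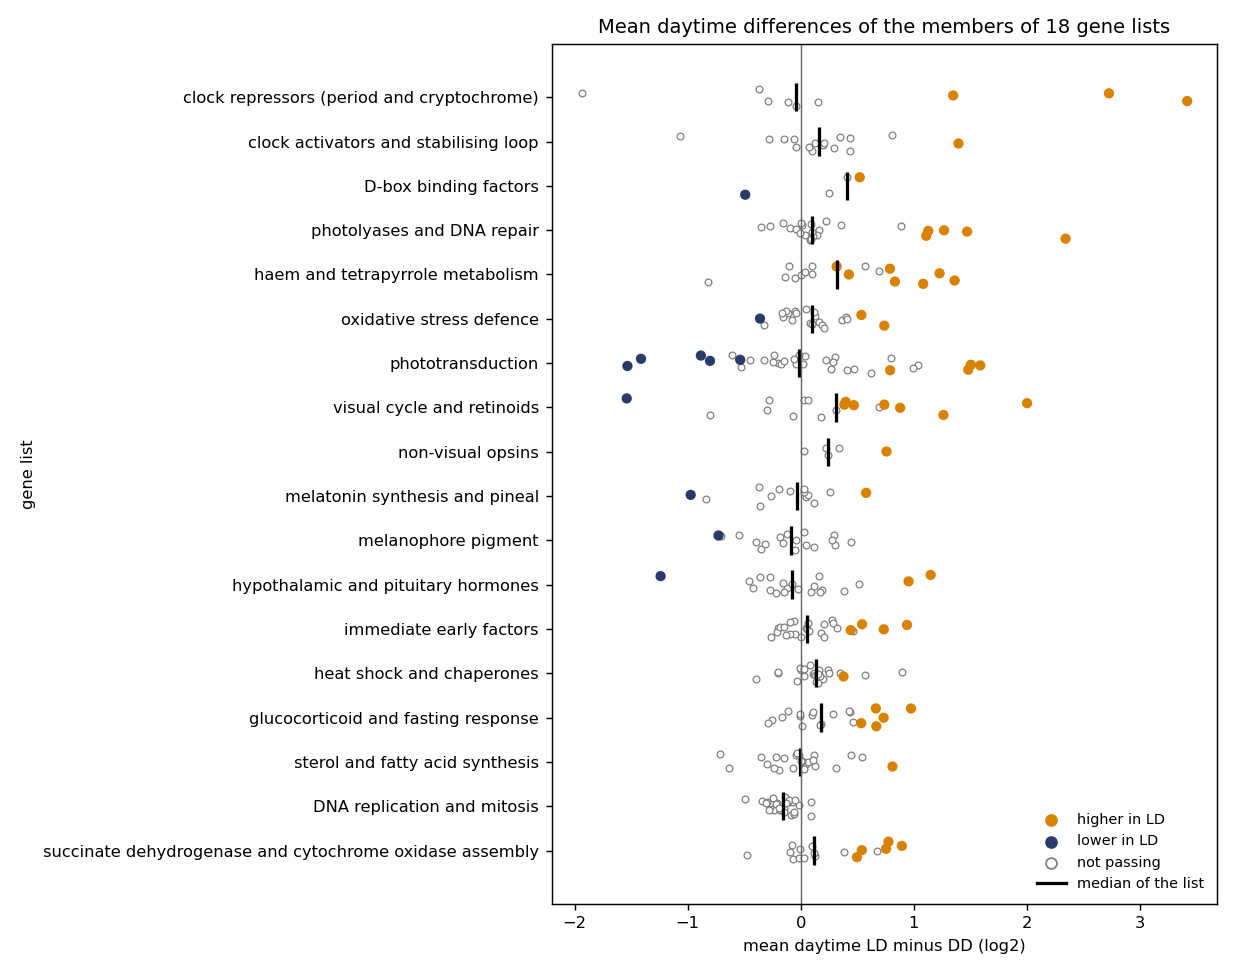
Mean daytime LD minus DD difference (x axis, log2) of each detected member of 18 gene lists (rows); filled orange points were higher and filled blue points lower in LD at an adjusted p under 0.05, open points did not pass, and black bars are list medians. Repair, haem, visual cycle and succinate dehydrogenase lists hold 5, 7, 7 and 5 orange points, and the replication list holds none of either colour.

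Of the remaining lists, those of succinate dehydrogenase and cytochrome oxidase assembly and of the glucocorticoid and fasting response held 5 calls each, and the others fewer. Over all NCBI genes 2.54% were higher and 1.68% lower, so a single call in a list of 24 or 26 genes is no result about the list. Among 17 genes of succinate dehydrogenase and cytochrome oxidase assembly, 5 were higher (median 0.12): the catalytic subunit *sdha* (0.78 ± 0.23, adjusted p = 0.00799, higher at each of its 4 probes), *sdhb*, the assembly factor *sdhaf2*, and *surf1* and *cox17*, which help build cytochrome oxidase (0.76 ± 0.19 and 0.89 ± 0.18). The call of *sdhb* was lost with 5 of the 6 hours left out singly and that of *sdhaf2* without hour 4. Of 26 immediate early genes, the activity-dependent factor *npas4a* (0.94 ± 0.50, adjusted p = 0.0285), the MAP kinase phosphatases *dusp4* (0.74 ± 0.12) and *dusp5* (0.54 ± 0.30), and the neurotrophin *bdnf* (0.44 ± 0.07) were higher. Of these only *dusp4* kept the call whichever hour was left out; *npas4a* lost it with 4 hours, *dusp5* with 5 and *bdnf* with hour 12. *fosab* was not called (-0.27 ± 1.22), with 14.44 on the DD array of hour 28 against 12.06 on the LD array. Of 20 genes of the glucocorticoid and fasting response, *foxo1a*, *igfbp1a*, *igfbp1b*, *g6pc1a.1* and *sgk1* were 0.54 to 0.98 higher. None of these 5 kept the call whichever hour was left out, and *g6pc1a.1* and *igfbp1a* had 0.64 and 0.54 at hour 0. The oxidative defence list of 23 had the methionine sulfoxide reductases *msrb3* (0.74 ± 0.20) and *msrb1a* (0.54 ± 0.16) higher and *gpx1b* lower (-0.36 ± 0.15, with -0.43 at hour 0). The call of *gpx1b* was lost with any 1 hour left out (adjusted p up to 0.119) and that of *msrb1a* without hour 12. Among 24 sterol and fatty acid genes *msmo1* alone passed (0.81 ± 0.38), and among 26 heat shock genes *hspa4a* (0.38 ± 0.17, with 0.59 at hour 0), calls that were lost with 4 and 5 of the 6 hours left out singly. None of 28 replication and mitosis genes passed, although 26 of them had estimates below 0. Their median was -0.16, with 0.16 at hour 0, against a daytime median of 0.01 over all NCBI genes. By hour the list median was uneven, at -0.12, 0.005 and 0.07 on the first day and -0.31, 0.09 and -0.47 on the second.

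Neuroendocrine and pigment genes were called singly, beside 2.54% higher and 1.68% lower over all NCBI genes. *uts1*, urotensin 1, a peptide of the corticotropin-releasing hormone family, had 9.82, 10.56 and 10.90 in LD and 9.17, 9.38 and 9.51 in DD, without overlap, and was 1.15 ± 0.46 higher (adjusted p = 0.0124; -0.02 at hour 0). *npvf*, an RFamide neuropeptide of the hypothalamus, had 7.43, 8.96 and 9.33 in LD and 9.59, 9.91 and 10.38 in DD (-1.24 ± 0.64, adjusted p = 0.0247), but LD was already lower at hour 0, at -0.86. The prolactin gene *prl2* was 0.95 ± 0.52 higher (adjusted p = 0.0295), by 0.28 to 0.76 on the first day and by 1.28 to 1.54 on the second. The call of *npvf* was lost without hour 12 or 32 and that of *prl2* with 4 of the hours. These were 3 of 21 hormone genes. Of 14 melatonin and pineal genes, *aanat1*, which acetylates serotonin and in teleosts is the retinal form, had 9.43, 9.92 and 10.34 in LD and 10.61, 10.86 and 11.32 in DD. It averaged -0.97 ± 0.34 without overlap (adjusted p = 0.00907), while *asmt2*, which makes melatonin from its product, was 0.58 ± 0.26 higher (adjusted p = 0.0258), a call lost with 4 of the hours. Among 18 melanophore genes *mitfa*, the transcription factor that specifies these cells, passed alone. It had 8.78, 9.04 and 9.40 in LD and 9.67, 9.69 and 10.12 in DD, without overlap and with 0.10 at hour 0. The difference was -0.74 ± 0.38 (adjusted p = 0.0289), largest at hour 28 (-1.34), and leaving out hour 4, 8, 32 or 36 took it past the limit (adjusted p up to 0.0735). The melanophore markers *pmela*, *tyrp1b*, *dct* and *slc24a5* gave -0.55 to -0.04 and none passed. *opn4.1*, a melanopsin, was the 1 of 5 non-visual opsins to pass (0.75 ± 0.33, adjusted p = 0.0208), and lost the call with 5 of the 6 hours left out singly.

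Other genes among the 15 largest higher differences had no list in common. *ptgdsb.1*, a prostaglandin D synthase of the lipocalin family, had 14.52, 14.97 and 15.20 in LD and 12.46, 12.68 and 13.22 in DD. It was 2.15 ± 0.32 higher (adjusted p = 0.000883) and 0.82 higher at hour 0, and its near copy *ptgdsb.2*, whose signal may not be separate, was 1.54 ± 0.23 higher (-0.15 at hour 0). *crtac1a*, a secreted matrix protein, was 2.09 ± 0.35 higher (adjusted p = 0.000999), *fam83ha* 1.97 ± 0.79 (adjusted p = 0.0109), and the dehydrogenase *dhrs12* 1.49 ± 0.52 (adjusted p = 0.00780). *atg14*, an autophagy factor, was 1.93 ± 0.48 higher at the probe read, with 1.13 at hour 0, but 0.13 at its second probe.

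**Figure D5:**
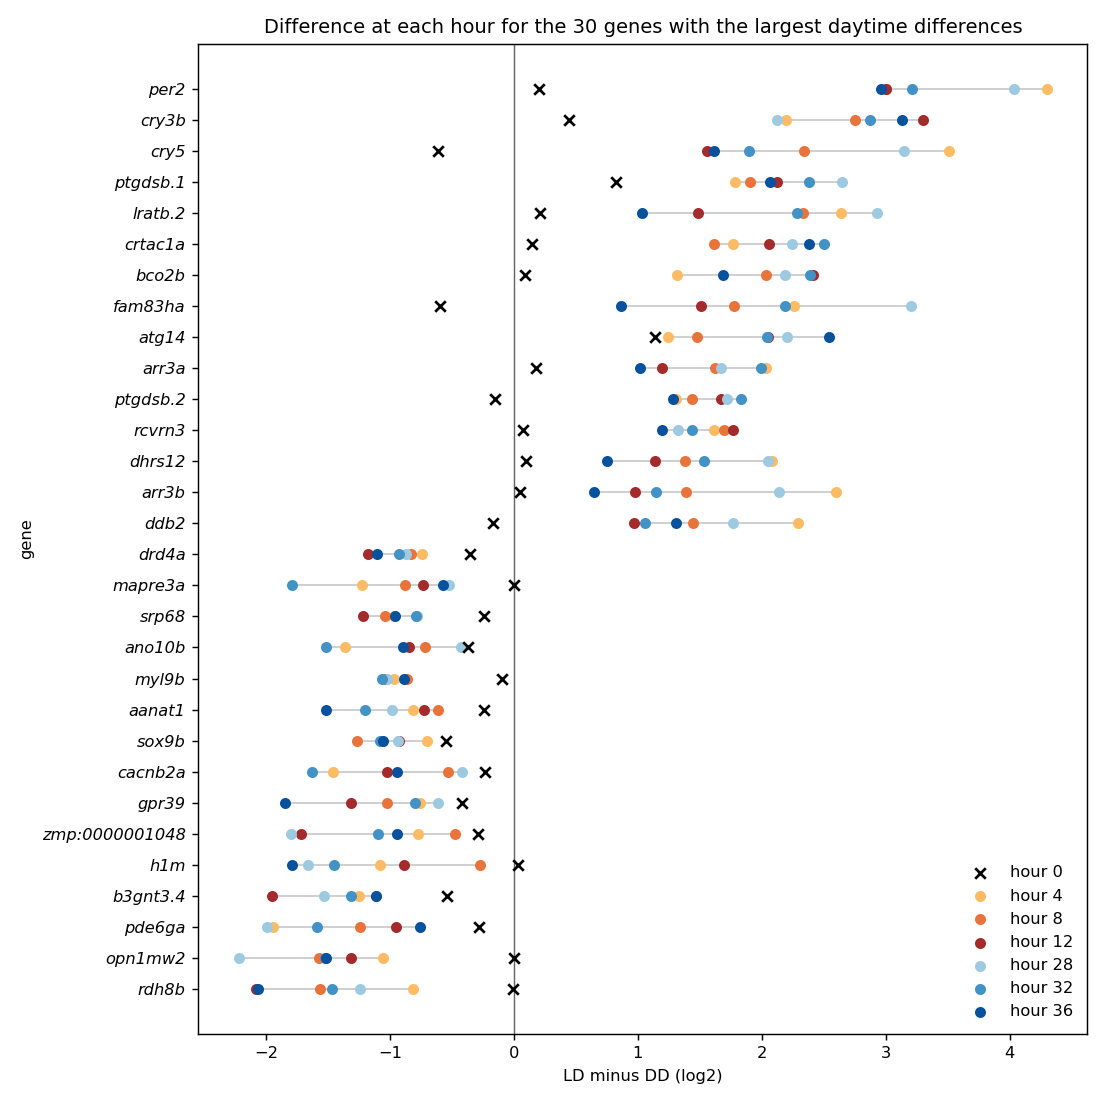
LD minus DD difference (x axis, log2) at each daytime hour (coloured points) and at hour 0 (crosses) for the 15 genes with the largest higher and the 15 with the largest lower mean difference beyond hour 0 (rows). All 6 points of a gene lie on one side of 0; *per2* spans 2.97 to 4.30 and *myl9b* -1.06 to -0.86.

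The lower genes were more mixed and their differences smaller. *b3gnt3.4*, a glycosyltransferase, averaged -1.38 ± 0.32 (adjusted p = 0.00335), the germline linker histone *h1m* -1.19 ± 0.56 (adjusted p = 0.0199; well above background on 5 of 6 LD arrays) and an uncharacterised gene -1.13 ± 0.53. The zinc receptor *gpr39* averaged -1.06 ± 0.46, the cartilage factor *sox9b* -0.99 ± 0.19 with -0.55 at hour 0, the myosin light chain *myl9b* -0.97 ± 0.08, the signal recognition particle subunit *srp68* -0.96 ± 0.16, the microtubule-binding *mapre3a* -0.96 ± 0.48 and the dopamine receptor *drd4a* -0.94 ± 0.17. At *gpr39* and *srp68* a second probe gave only -0.23 and -0.04. *cacnb2a*, a calcium channel subunit (-1.0 ± 0.48), and *ano10b*, an anoctamin (-0.96 ± 0.40), both had the largest differences at hours 4 and 32 (-1.46 and -1.63 for *cacnb2a*) and the smallest at hour 28 (-0.42 and -0.43). Left out singly, 4 of the hours ended the call of *h1m*, hours 4, 8 and 12 that of *mapre3a*, hours 4, 12 and 36 that of *cacnb2a*, hour 12 that of *gpr39* and hours 12 and 32 that of the uncharacterised gene.

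Slide differences that are constant over 4 successive hours cancel when daytime and other hours are compared within slides. In that fit of all 12 paired differences 1 probe (0.00282%) passed, for *trim108* (1.46, adjusted p = 0.0452), and 4382 (12.4%) had an unadjusted p under 0.05. Of the 30 named genes, 23 had an unadjusted p under 0.05. They were chosen on daytime and hour-0 differences that this fit reuses, so that count is no support. The estimates were about as large as the daytime means, or larger, for *per2* (3.15), *bco2b* (1.97), *cry5* (2.04), *cry3a* (1.26), *neil1* (1.25), *rdh8b* (-1.65), *pde6ga* (-2.18), *aanat1* (-1.11) and *mitfa* (-0.99). They were smaller for *arr3a* (0.85), *arr3b* (0.76), *rcvrn3* (0.73), *ptgdsb.1* (0.80), *ptgdsb.2* (0.76), *crtac1a* (1.07), *atg14* (0.40), *b3gnt3.4* (-0.50), *sox9b* (-0.34) and *srp68* (-0.41). To a lesser degree they were smaller for *tspo* (0.99), for *cry3b*, with 10.75 in LD and 8.57 in DD at hour 16, and for *opn1mw2*, with 12.81 and 13.98. They were also smaller for *cacnb2a* (-0.18), *ano10b* (-0.13) and *myl9b* (-0.31), whose unadjusted p was 0.067 to 0.51. A difference that lasts into the other hours also lowers the estimate. *arr3a* had 14.98 in LD and 13.50 in DD at hour 16, and 14.95 and 13.50 at hour 40. Its levels were 16.26 and 16.08 at hour 0, and 15.97 and 15.63 at hour 24. The part of such lasting differences was not tested. At hour 24 the differences of *atg14* (2.15), *ptgdsb.1* (1.43), *fam83ha* (1.21), *ptgdsb.2* (1.08) and *per2* (0.90) were near or past 1 in size. So were those of *opn1lw2* (-0.91), *b3gnt3.4* (-0.98), *myl9b* (-1.04), the uncharacterised gene (-1.36) and, as given above, *opn1mw2*. Those of *cry3b* and *rdh8b* were -0.03 and -0.01. The DD array of hour 24 had the lowest share of probes well above background in the time course, 75.1%, against 87.6% on its LD array. With the single hour-0 difference subtracted, 9 probes passed (5 higher, 0.0141%, and 4 lower, 0.0113%), and 1954 (5.52%) had an unadjusted p under 0.05. Of the 9, 2 had also passed without it. The rest of the 9 had daytime means of -0.79 to 0.08 that did not pass. Their hour-0 differences were -8.95 to -4.67 or 3.01 to 6.25. Subtracting the mean difference of hours 0 and 24, both at lights-on, left 1 higher probe (0.00282%) and 2453 (6.93%) with an unadjusted p under 0.05. This higher probe, matched to no NCBI gene, averaged 2.98 in daytime (limma, adjusted p = 3.78e-05), with -0.35 at hour 0. It was also among those that passed with hour 0 subtracted (3.33, adjusted p = 0.00863). No probe passed for a difference between the first and second day, where 2690 (7.6%) had an unadjusted p under 0.05; *prl2* (0.89 larger on the second day, p = 0.00171) and *g6pc1a.1* (0.65, p = 0.00221) were among them in the limma fit.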

How the data were processed

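Cy3-labelled RNA of pooled whole larvae was hybridised to Agilent arrays of 43603 probes, 1 array per condition and hour. The spot intensities were deposited as extracted with Agilent Feature Extraction (version 10.5.1 per the labels) and were already background-subtracted. The log2 values of the deposited series matrix, which the authors quantile normalized over the 24 time-course arrays, were analysed. Each column correlated best with the scanner file of its own array (r of at least 0.997). No spot was saturated. The number of arrays limits the precision.

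A probe entered the tests if Feature Extraction marked it well above background on 75% or more of the 24 arrays, which left 35412. Accessions matched 16568 probes to 11484 NCBI genes, and the detected probe with the highest mean value stood for a gene. LD and DD were compared in limma 3.58.1 (R 4.3.3) with hour as a block, moderated two-sided tests and Benjamini-Hochberg adjustment over all detected probes. The difference of an hour is that of 2 arrays and has no test of its own. The named genes are the 15 with the largest higher and the 15 with the largest lower mean difference among probes that passed, had 1 sign at all 6 hours and lay beyond hour 0, plus members of 18 lists. The members and lists were chosen with earlier results of these data known, and genes outside the rule are said to be chosen after their values were seen. On simulated data with 200 of 35412 probes changed, 15.5%, 74% and 88% were recovered at log2 changes of 0.5, 1 and 1.5. These runs held 1, 7 and 11 false calls, and 0 probes were called without change. The simulated differences were independent between hours and held no slide or scan-day difference. False calls from such differences were therefore not measured.

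Alternatives were scanner intensities with quantile normalization, 75th-percentile scaling or normexp (offset 50), other detection filters, no block, slide as a random block, an intensity trend, each hour left out, each day alone, subtraction of hour 0, and daytime against other hours within slides. Promoter and protein sequences and the other 7 arrays were not analysed here.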

Additional observations from a re-analysis of the deposited data

Results flagged for a closer look

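Among 114 groups of 6 differences or arrays checked, 3 held a value whose gap to its nearest neighbour exceeded the share of the whole range that Dixon's criterion allows for 6 values, a test that chance passes in about 1 of 20 groups. The LD minus DD difference of *msmo1*, a sterol demethylase, was 1.56 at hour 28, highest of the 6 and apart from the others at 0.53 to 0.84. The difference of *rbp4*, the plasma retinol carrier, was 0.23 at hour 4, lowest of the 6 and apart from the others at 0.39 to 0.48. On the LD array of hour 28, 92.0% of probes lay well above background, apart from the other 5 daytime LD arrays at 84.0 to 86.7%.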

How the results depend on the processing

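Main counts were 763 probes higher and 894 lower in LD. Scanner values gave 768 and 916, the 75th percentile 859 and 652, normexp 1027 and 1281, no detection filter 513 and 521, detection on all 24 arrays 902 and 1102, slide as a random block 563 and 636, and an intensity trend 1028 and 1237. Without pairing by hour (no replicate block) 318 and 298 passed; pairing rests on the shared hour of collection. Leaving out 1 hour gave 314 (hour 12) to 421 (hour 28) higher and 272 (hour 12) to 576 (hour 32) lower probes; counts fell more than 1.5-fold for every hour in both directions. The first day alone gave 0 and 0 (6278 unadjusted), the second day 4 and 1 (4542), subtraction of hour 0 gave 5 and 4, and daytime against other hours within slides 1 and 0. Subtraction of the mean of hours 0 and 24, added after seeing the data, gave 1 and 0 (2453 unadjusted). The day, hour-0 and within-slide fits differ from the main one in their samples or their contrast; the cause of other shifts was not tested.

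The signs of the 30 named genes in the fits that leave out hours or subtract hour 0 are set by how they were chosen and say nothing of stability. Of the 30, 24 passed without the block, 26 to 28 with an hour left out, 29 at the 75th percentile and 0, 1, 0, 0 and 0 in the first day, second day, hour-0, within-slide and hours 0 and 24 fits. Signs turned for *blvrb* (-0.000427 after subtracting hour 0), *dnajc19* (0.73 after hour 0 and 0.37 after hours 0 and 24), *gpx1b* (0.0729 after hour 0 and 0.14 within slides), *hspa4a* (-0.22 after hour 0, -0.37 within slides and -0.43 after hours 0 and 24), *leng9* (-0.61 within slides), *pink1* (-0.0925 after hour 0) and *rpe65a* (-0.51 within slides). No probe passed for a change within the day or between days, also with scanner values or without the filter. Signals were 7.25 to 11.9 times background at the median probe.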

Other observations

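The genes of this paragraph were chosen after their values were seen, and their limma calls are descriptions. Beside *bco2b*, other carotenoid and retinoid genes were higher in LD: the carotenoid oxygenases *bco2l* (1.12 ± 0.24, SD, n = 6 pairs) and *bco1l* (0.87 ± 0.18), and *cyp26a1*, which degrades retinoic acid (0.73 ± 0.20). Their differences at hour 0 were -0.40, -0.06 and -0.01, and those of *bco2l* and *bco1l* at hour 24 were 0.89 and 0.74. *unc119a2* (0.74 ± 0.34), *unc119a1* (0.46 ± 0.20) and *arl3l1* (0.96 ± 0.25), relatives of the proteins that carry lipid-modified transducin into photoreceptor outer segments, were higher with 0.01 to 0.04 at hour 0. Left out singly, every hour ended the call of *unc119a1* and 4 hours that of *unc119a2*. The methionine sulfoxide reductase *msraa* (0.66 ± 0.21) was higher like *msrb3* and *msrb1a*. The vitamin D hydroxylase *cyp24a1* was 1.12 ± 0.56 higher, by 0.54 to 0.77 on the first day and 1.30 to 2.00 on the second, and the thyroid hormone deiodinase *dio1* was 0.79 ± 0.41 higher with -0.92 at hour 0. The call of *cyp24a1* was lost without hour 32 or 36 and that of *dio1* with 5 of the hours.

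The mitochondrial genes of this paragraph were chosen after their values were seen, and mitochondrial genes as a set were not counted. Over all NCBI genes 2.54% were higher and 1.68% lower. The import factor *dnajc19*, given above, was lower, as was a probe of the mitochondrial ribosomal gene *mrpl13* (-0.52, limma, adjusted p = 0.0104). Some mitochondrial genes outside the list of succinate dehydrogenase and cytochrome oxidase assembly were higher, each by less than 1. They were the protease subunit *clpxa* (0.78 ± 0.30, at 0.58 to 0.86 over 3 probes), the electron transfer flavoprotein *etfa* (0.87 ± 0.43, but 0.03 at a second probe), the acyl-CoA dehydrogenases *acadvl* (0.41 ± 0.07) and *acadm* (0.42 ± 0.21), the iron-sulfur cluster genes *nfs1* (0.47 ± 0.17) and *isca1* (0.45 ± 0.12), *hccsb* (0.48 ± 0.26), *sdhaf4* (0.53 ± 0.29) and *higd1a* (0.73 ± 0.13). *acadm* and *etfa* had 0.41 and 0.36 at hour 0, and *higd1a* had 1.16 at hour 24. With hours left out singly, *clpxa* and *higd1a* kept the call each time, *acadm* and *hccsb* lost it each time, *nfs1* and *sdhaf4* with 5 hours, and *acadvl* (hours 4, 8 and 12), *etfa* (hours 12, 28 and 36) and *isca1* (hours 4, 12 and 28) with 3. Cytochrome oxidase subunits of the list did not pass, with *cox4i1*, *cox5aa*, *cox6a1* and *cox7a2a* at -0.07 to 0.12.

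*riox2*, *bglap*, *dnajc2*, *med17*, *cops6*, *stk10* and *prpsap1* were lower in LD, with means of -0.91 to -0.76. In each the largest difference was at hour 32 (-1.57 to -1.13) and the next at hour 4 (-1.32 to -0.98). These genes were chosen after their values were seen, so the order of hours they share is no result. At *riox2*, *dnajc2* and *stk10* another probe of the gene gave -0.01, -0.10 and -0.24. Within slides their estimates were -0.66 to -0.14. Left out singly, hour 4 ended the call of *riox2*, 3 hours each that of *dnajc2* and *stk10*, and 4 that of *prpsap1*.

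Over all probes, differences of different hours were correlated, and the highest values did not join like hours of the 2 days. Pearson's r across probes was 0.52 for hours 4 and 12 and 0.48 for hours 0 and 8, against 0.04 for hours 0 and 4 and 0.03 for hours 0 and 12. Like hours gave 0.26 (hours 4 and 28), 0.23 (hours 8 and 32) and 0.22 (hours 12 and 36). Hours 0, 4, 8 and 12 share their slides, probes are not independent, and these values are given without a test. The paired fit takes the daytime hours as independent repeats, and what shared differences between arrays do to its p-values was not tested.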
